A study of Macaca mulatta with 24 samples.

Results

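Genes of cholesterol synthesis and sterol sensing were followed across the layers of the lateral geniculate nucleus (LGN), the thalamic relay between the eye and the visual cortex, after one eye had been deprived of vision from birth. The 8 genes were HMGCS1, IDI1, FDFT1, SQLE, CYP51A1 and DHCR7, which encode enzymes of cholesterol synthesis, and INSIG1 and SREBF2, which encode a sterol sensor and a transcription factor. Every probe set that the platform annotation ties to 1 of these symbols alone was taken, which gave 16 of the 52766 probe sets other than controls, and these 16 covered 7 of the 8 genes, out of 14132 genes named on the array. HMGCS1 has no probe set by that annotation. The paper on these arrays gives its name to the probe set MmugDNA.39414.1.S1_at. The study picked this probe set on the magnocellular arrays used here, so its magnocellular difference is given as a description and not as independent evidence. The 8 genes and the gene lists below were chosen with earlier results of these data known, so counts over them are descriptions too. All 16 probe sets had a signal of 100 or more on at least 1 array and were tested with 37623 probe sets in all.

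The tissue came from 2 rhesus macaques. One had worn an opaque contact lens over the left eye for 2 months and the other had the lids of the left eye closed by tarsorrhaphy for 4 months, so duration, method, age at sampling and animal cannot be told apart. No animal with 2 open eyes is among these arrays, and each nondeprived layer came from the same LGN as its deprived partner. The deprived eye projects to layers 2, 3 and 5 on its own side of the brain, the ipsilateral LGN, and to layers 1, 4 and 6 on the opposite side. The 2 ventral layers, 1 and 2, hold large magnocellular neurons and the other 4 hold small parvocellular ones. Each of the 6 layers of 4 LGNs gave 1 array of pooled, laser-captured sections, so that 8 parvocellular arrays were deprived and 8 nondeprived, and 4 magnocellular arrays were deprived and 4 nondeprived. Because the layers of an animal are not separate animals, p-values measure the spread between layers of 2 monkeys.

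Cells make cholesterol from acetyl-CoA by way of mevalonate. HMGCS1 makes the precursor of mevalonate, IDI1 supplies the isoprene unit that is chained into farnesyl diphosphate, FDFT1 joins farnesyl units into squalene, SQLE oxidizes squalene, and CYP51A1 and DHCR7 carry out later steps on the sterol ring. SREBF2 encodes SREBP2, a membrane-bound factor that switches on nearly all of these genes when sterols are low. INSIG1 holds SREBP2 in the endoplasmic reticulum when sterols are high and is itself one of its targets. Brain cholesterol is made largely within the brain, most of it sits in myelin, and neurons also draw on cholesterol released by astrocytes.

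Signal is the linear intensity that the array software reports per probe set, in arbitrary units. Signals of different probe sets cannot be ranked as amounts of RNA, so levels are compared between layers within a probe set. Over the 24 arrays the brightest probe set of each gene averaged 5410 ± 1435 for HMGCS1, 2164 ± 889 for IDI1, 8554 ± 1296 for FDFT1, 2082 ± 510 for SQLE, 2617 ± 699.8 for CYP51A1, 215 ± 64.7 for DHCR7, 3671 ± 1076 for INSIG1 and 2349 ± 622 for SREBF2 (SD, n = 24). The DHCR7 probe set gave a signal under 100 on 1 of 24 arrays. Among dimmer probe sets, 1 of SQLE was under 100 on 12 arrays, 1 of IDI1 on 21, and 2 of SREBF2 on 20 and 23.

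One array stood apart in RNA measures. It came from ipsilateral layer 2, a deprived magnocellular layer, of the animal deprived for 2 months. The ratio of the 3′ to the 5′ probe set of GAPDH, which grows as RNA is shorter, was 50.8 there and between 1.97 and 14.3 on the other 23 arrays. Its correlation with other arrays averaged 0.837, and that of each remaining array lay between 0.882 and 0.908. The median ratio was 5.08 in deprived and 4.74 in nondeprived parvocellular layers, and 8.11 in deprived and 4.36 in nondeprived magnocellular layers, and within magnocellular pairs it was higher in the deprived layer of both ipsilateral LGNs (50.8 against 3.75 at 2 months and 8.91 against 4.97 at 4 months), nearly level in the contralateral LGN at 4 months (3.96 against 3.74) and lower in the contralateral LGN at 2 months (7.31 against 14.3). Its part in the magnocellular differences was not tested beyond the values given without this array and with the ratio as a covariate.

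**Figure D1:**
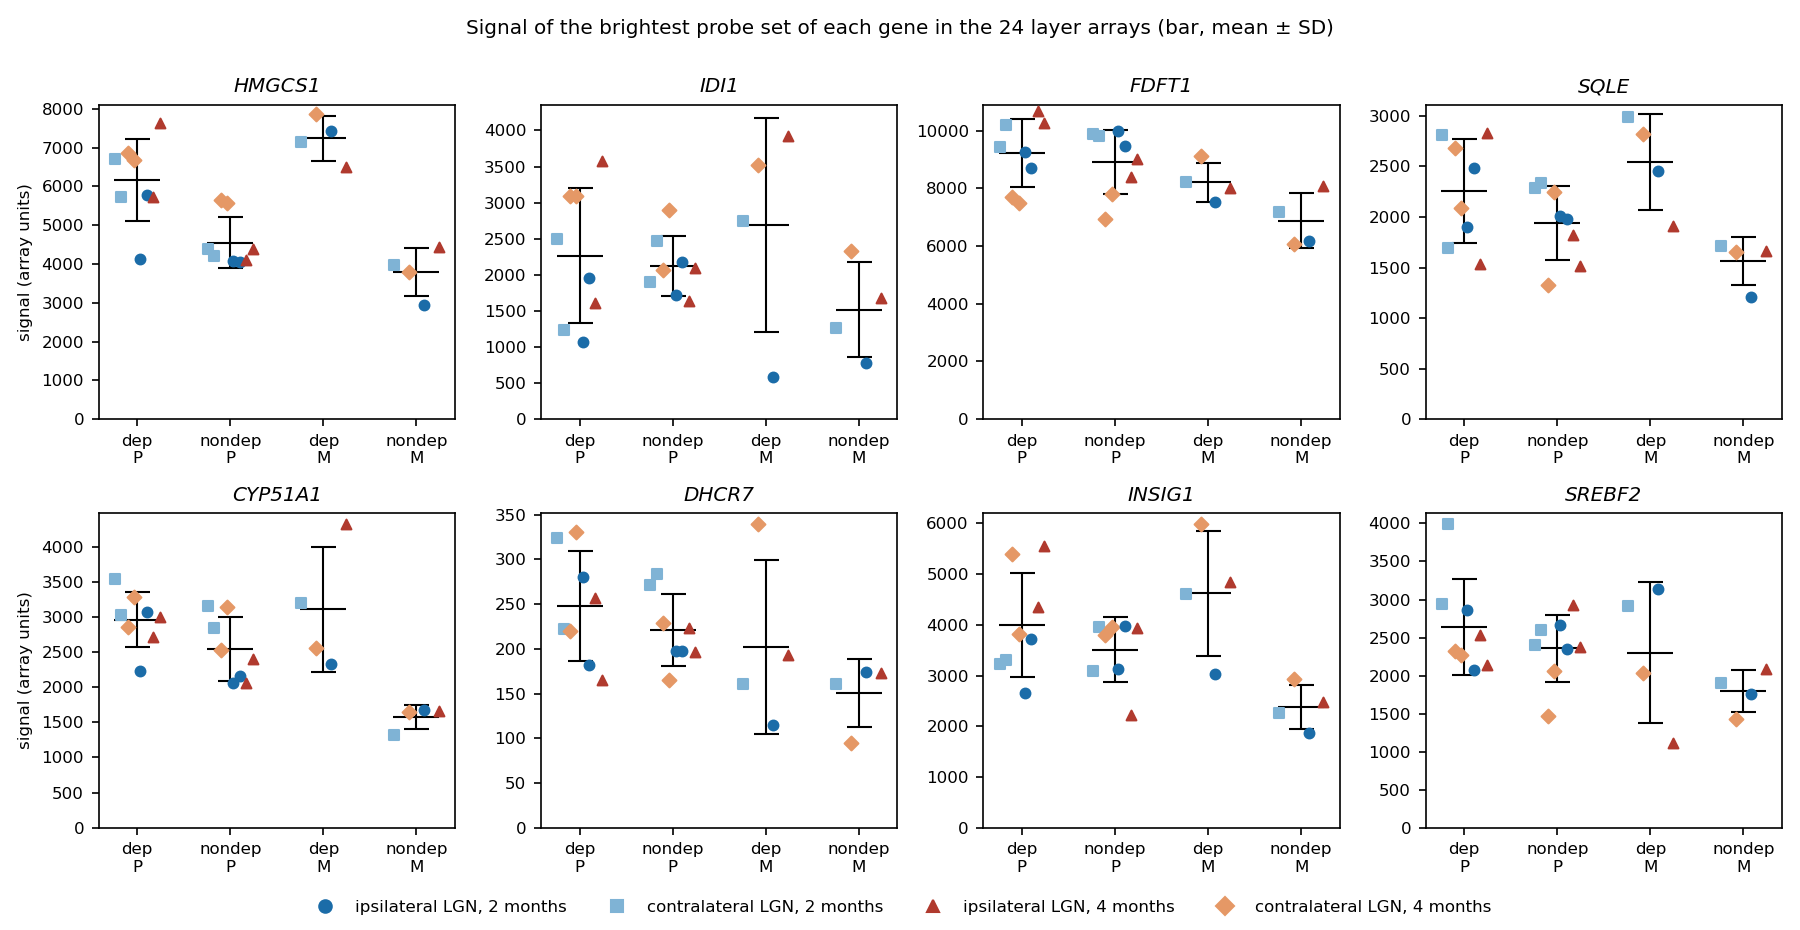
Signal (vertical axis, linear array units) of the brightest probe set of each of the 8 genes in deprived parvocellular (dep P), nondeprived parvocellular (nondep P), deprived magnocellular (dep M) and nondeprived magnocellular (nondep M) layers. Points are arrays, with shape and colour for the LGN, and black bars show the mean and SD. For HMGCS1, SQLE, CYP51A1 and INSIG1 the 4 deprived magnocellular points lie above the 4 nondeprived magnocellular points.

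In magnocellular layers the brightest probe sets of INSIG1, CYP51A1 and SQLE were higher in every deprived layer than in any nondeprived layer, as were 2.78% of all probe sets. For INSIG1, CYP51A1 and SQLE the mean difference was 1.91-fold, 1.92-fold and 1.62-fold. HMGCS1, which the study picked on these arrays, also lay without overlap at 1.92-fold, which is a description only. None of these passed the adjusted threshold. No probe set of the 37623 did in this comparison (0%, limma, with each LGN as a block and p-values adjusted by Benjamini-Hochberg), although 2138 had an unadjusted p under 0.05. Each magnocellular estimate rests on 4 pairs of layers, whose signals are given in the order contralateral and ipsilateral LGN at 2 months, then contralateral and ipsilateral LGN at 4 months.

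INSIG1 (MmugDNA.1068.1.S1_at) had signals of 4607, 3023, 5993 and 4850 in deprived magnocellular layers, against 2261, 1868, 2924 and 2480 in nondeprived magnocellular layers. The lowest deprived layer thus lay above the highest nondeprived one, and the difference was 0.93 on the log2 scale (SE 0.24, unadjusted p = 0.0028, adjusted p = 0.836, limma). It was positive in 4 of 4 LGNs, between 0.69 and 1.04. INSIG1 encodes the protein that retains SREBP2.

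CYP51A1 (MmuSTS.4025.1.S1_at), lanosterol demethylase, had signals of 3202, 2335, 2560 and 4324 in deprived magnocellular layers and of 1324, 1678, 1642 and 1665 in nondeprived magnocellular layers. The nondeprived arrays lay between 1642 and 1678 apart from 1 at 1324, the deprived arrays spread more widely, and the groups did not overlap. The difference was 0.94 (SE 0.27, unadjusted p = 0.00545, adjusted p = 0.836, limma), between 0.48 and 1.38 in the 4 LGNs.

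SQLE (MmugDNA.43604.1.S1_at), squalene epoxidase, had signals of 2989, 2458, 2819 and 1911 in deprived magnocellular layers and of 1717, 1211, 1653 and 1666 in nondeprived magnocellular layers. The groups did not overlap, but in the ipsilateral LGN of the animal deprived for 4 months they were 0.20 apart. The difference was 0.70 (SE 0.26, unadjusted p = 0.0226, adjusted p = 0.836, limma).

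HMGCS1 had signals of 7147, 7441, 7863 and 6501 in deprived magnocellular layers and of 3983, 2951, 3800 and 4451 in nondeprived magnocellular layers. The groups lay far apart, with means of 7238 ± 573 and 3796 ± 627 (SD, n = 4 each). The difference was 0.94 on the log2 scale (SE 0.25), a value that the study's choice of this probe set had already used.

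IDI1, isopentenyl diphosphate isomerase, overlapped between the groups. Its brightest probe set (MmuSTS.168.1.S1_x_at) had signals of 2740, 590, 3517 and 3924 in deprived magnocellular layers and of 1264, 782, 2336 and 1675 in nondeprived magnocellular layers. The deprived layer at 590 was layer 2 of the ipsilateral LGN of the animal deprived for 2 months, and the difference over all pairs was 0.63 (SE 0.32, adjusted p = 0.836, limma). A second IDI1 probe set (MmuSTS.168.1.S1_s_at) was higher in the deprived layer of 4 of 4 LGNs, by 0.65 on average (SE 0.29, unadjusted p = 0.0475, adjusted p = 0.836, limma). Its identifier shares a stem with the brightest one and the suffix marks probes that match more than 1 transcript, so these 2 are not independent readings.

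The brightest probe sets of FDFT1, DHCR7 and SREBF2 differed less. FDFT1 (MmugDNA.39939.1.S1_at), squalene synthase, averaged 8213 ± 674 in deprived and 6873 ± 956 in nondeprived magnocellular layers (SD, n = 4 each), a log2 difference of 0.26 (SE 0.24). DHCR7 (MmugDNA.40849.1.S1_at), the enzyme of the last step of one branch, averaged 202 ± 97.0 in deprived and 151 ± 37.9 in nondeprived magnocellular layers, a difference of 0.35 (SE 0.46) that came mostly from the contralateral LGN at 4 months, where it was 1.84. SREBF2 (MmugDNA.35302.1.S1_at) averaged 2302 ± 928 in deprived and 1792 ± 276 in nondeprived magnocellular layers, a difference of 0.27 (SE 0.32), and in the ipsilateral LGN at 4 months it was -0.91, lower in the deprived layer.

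The genes of the 16 probe sets were chosen with earlier results of these data known, so the counts that follow are not independent evidence. Counted over the 16 probe sets, 4 were higher in deprived magnocellular layers at an unadjusted p under 0.05, namely 1 each of INSIG1, CYP51A1, SQLE and IDI1, against 3.96% of all probe sets tested. The same 4 were higher in the deprived layer of 4 of 4 LGNs, against 10.6% of all. In 3 of 16 the deprived layers lay wholly above the nondeprived ones, against 2.78%. Of the 16, 13 had a positive difference and the median was 0.32, against 60.1% positive and a median of 0.13 over all probe sets, so that the whole array leaned the same way. A mean fold of 1.7 or more with a higher signal in the deprived layer of 4 of 4 pairs was found for 2 of 16, INSIG1 and CYP51A1, against 5.57% of all probe sets. The fold limit and the number of pairs are those of the study, which however counted the increase and decrease calls of the array software for each pair. Those calls were not used here, so this is not the study's rule.

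This count depended on how arrays were scaled. With each array scaled to a common median the median difference of all probe sets moved to -0.15, the median of the 16 to 0.03, and none of the 16 was higher at an unadjusted p under 0.05, against 1.38% of all. After quantile normalization it was 3 of 16, against 2.62% of all. INSIG1, CYP51A1 and SQLE kept a positive difference under every setting tried, at 0.61 to 1.01, 0.53 to 1.10 and 0.21 to 0.91. Those settings went beyond scaling and included the mean over a gene's probe sets, so the ranges are not of the brightest probe set alone.

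**Figure D2:**
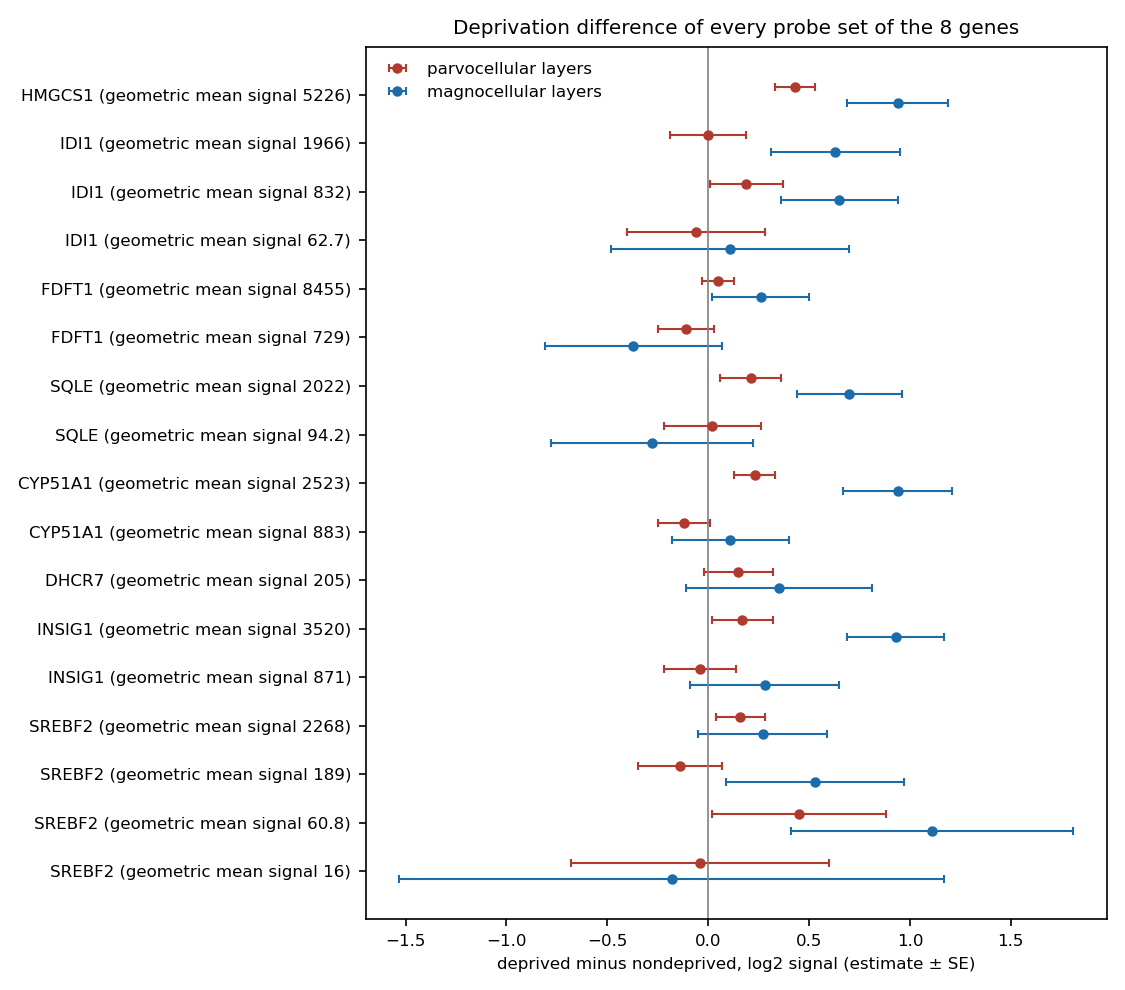
Deprived minus nondeprived difference in log2 signal (horizontal axis, estimate with SE bars from limma) for each of the 16 probe sets and for HMGCS1, in parvocellular (red) and magnocellular (blue) layers. Labels give the geometric mean signal over 24 arrays. The magnocellular estimates of HMGCS1, CYP51A1 and INSIG1 at 0.93 to 0.94 belong to bright probe sets, and the dimmer probe sets of INSIG1 and CYP51A1 lie at 0.28 and 0.11.

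In parvocellular layers HMGCS1 was the 1 gene of the 8 that passed the threshold. It rose 1.35-fold in deprived layers, with 6163 ± 1061 in deprived and 4551 ± 665 in nondeprived parvocellular layers (SD, n = 8 each). None of the 16 probe sets of the other 7 genes was called, against 0.970% of all probe sets, or 365, of which 220 were higher and 145 lower in deprived layers.

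HMGCS1 signals ranged between 4135 and 7645 in deprived parvocellular layers, with a median of 6240, and between 4044 and 5646 in nondeprived ones, with a median of 4290. The groups overlapped through 1 deprived layer at 4135, layer 3 of the ipsilateral LGN at 2 months, and the next deprived layer stood at 5736. Within LGNs the deprived layer of each neighbouring pair (3 with 4, 5 with 6) was higher in 8 of 8 pairs, for which no share over all probe sets is given. By LGN mean HMGCS1 was higher in deprived layers in 4 of 4 LGNs, as were 10.7% of all probe sets. The log2 difference was 0.43 (SE 0.10, adjusted p = 0.0371, limma), with 0.27 and 0.53 in the ipsilateral and contralateral LGN at 2 months and 0.64 and 0.27 at 4 months. The call was near the threshold. It was kept when 4 of the 16 parvocellular arrays were left out in turn and lost for the other 12, with adjusted p between 0.0175 and 0.104, and it was lost with either animal alone (adjusted p = 0.407 at 2 months and 0.532 at 4 months, limma).

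By brightest probe set, only CYP51A1 and HMGCS1 of the 8 genes were higher in the deprived layer of every parvocellular pair. No share over all probe sets is given for this, so it is not shown to be particular to them. The brightest CYP51A1 probe set ranged between 2227 and 3541 (median 3007) in deprived and between 2058 and 3152 (median 2468) in nondeprived parvocellular layers. The ranges overlapped widely, the deprived layer was higher in 8 of 8 pairs, and the difference was 0.23 (SE 0.10, unadjusted p = 0.0316, adjusted p = 0.36, limma). It was the only 1 of 16 that was higher at an unadjusted p under 0.05, against 6.21% of all probe sets. It was also the only 1 of 16 higher in 4 of 4 LGNs, against 10.7% of all. Neither count stood clearly above the share over all probe sets. The dimmer CYP51A1 probe set (MmugDNA.10139.1.S1_at) gave -0.12 (SE 0.13), with the deprived layer higher in 4 of 8 pairs.

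The remaining parvocellular differences were small. The brightest probe set of SQLE averaged 2253 ± 515 in deprived and 1940 ± 369 in nondeprived layers, INSIG1 4001 ± 1029 and 3511 ± 639, and SREBF2 2643 ± 630 and 2358 ± 440, with log2 differences of 0.21 (SE 0.15), 0.17 (SE 0.15) and 0.16 (SE 0.12). IDI1 averaged 2267 ± 939 in deprived and 2122 ± 411 in nondeprived layers, FDFT1 9213 ± 1176 and 8905 ± 1108, and DHCR7 248 ± 61.5 and 221 ± 40.2, with differences of 0.00 (SE 0.19), 0.05 (SE 0.08) and 0.15 (SE 0.17). All 6 of these groups overlapped. Over the 16 probe sets 9 differences were positive with a median of 0.03, against 48.7% positive and a median of -0.01 over all, and none had a mean fold of 1.7 or more with 6 of 8 pairs in one direction (again the direction of the pairs, not the software's calls), against 3.44% of all in either direction.

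**Figure D3:**
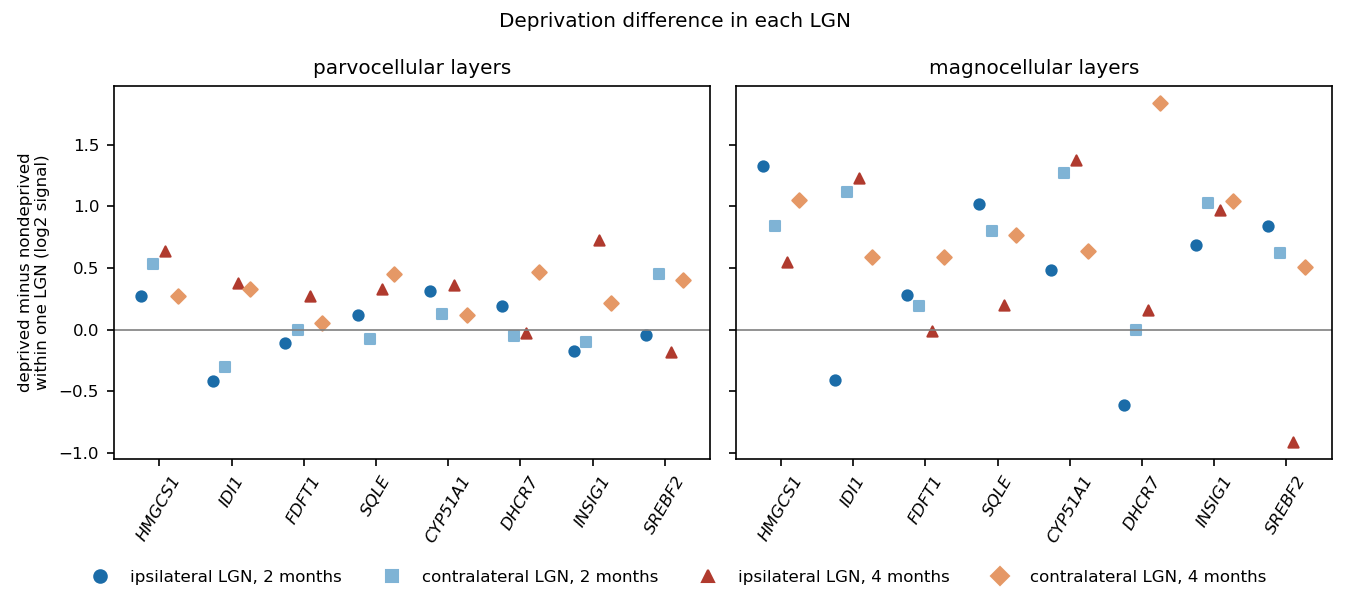
Deprived minus nondeprived log2 signal within each of the 4 LGNs (vertical axis) for the brightest probe set of the 8 genes, in parvocellular layers (left, means of 2 deprived and 2 nondeprived layers) and magnocellular layers (right, 1 layer each). HMGCS1 and CYP51A1 are above 0 in all 8 values shown, and INSIG1 in parvocellular layers is below 0 in the LGNs at 2 months and above 0 at 4 months.

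Differences between layer classes in the effect of deprivation were tested directly. The effect was smaller in parvocellular than in magnocellular layers for CYP51A1, by 0.72 on the log2 scale (estimate -0.72, SE 0.22, unadjusted p = 0.00337, adjusted p = 0.664, limma), and for INSIG1 (estimate -0.76, SE 0.25, unadjusted p = 0.00567, adjusted p = 0.667). These were the 2 of 16 that were lower in parvocellular layers at an unadjusted p under 0.05, against 4.74% of all probe sets, and no probe set of the array was called (0%, with 2540 at an unadjusted p under 0.05). Without the array with the GAPDH ratio of 50.8 the estimates were -0.79 for CYP51A1 and -0.89 for INSIG1 (adjusted p = 0.544 each, limma). The brightest IDI1 probe set moved from -0.64 to -1.12 (adjusted p = 0.561, limma) and DHCR7 from -0.20 to -0.42. FDFT1 moved from -0.21 to -0.26, SQLE from -0.49 to -0.48 and SREBF2 from -0.11 to 0.08. HMGCS1 had an estimate of -0.51 (SE 0.18), which contains the magnocellular values that selected it. A larger effect in one class is therefore not shown for these genes after adjustment.

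Whether the parvocellular effect differed between the animals was tested as well, and no probe set of the array was called (0%, with 1465 at an unadjusted p under 0.05). The smallest p-value among the 16 belonged to the dimmer CYP51A1 probe set (MmugDNA.10139.1.S1_at), whose effect was 0.64 larger at 4 months (SE 0.23, unadjusted p = 0.0106, adjusted p = 0.973, limma), while HMGCS1 and the brightest probe set of CYP51A1 gave 0.06 and 0.02. INSIG1 is given by array because both of its probe sets had an unadjusted p under 0.05. Its signals in deprived parvocellular layers were 3231, 3299, 2666 and 3716 in the animal deprived for 2 months and 5389, 3812, 4347 and 5544 in the animal deprived for 4 months. Nondeprived parvocellular layers gave 3093, 3952, 3135 and 3982 at 2 months and 3806, 3961, 2223 and 3937 at 4 months. Deprived layers were thus at the level of nondeprived ones in one animal and mostly above them in the other, and the effect was 0.61 larger at 4 months (SE 0.27, unadjusted p = 0.0338, adjusted p = 0.973, limma). The second INSIG1 probe set (MmugDNA.32189.1.S1_at) gave 0.80 (SE 0.32, unadjusted p = 0.0242).

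For IDI1 the sign differed between the animals. Its brightest probe set had a parvocellular difference of -0.42 and -0.30 in the LGNs at 2 months and of 0.38 and 0.33 at 4 months, and the effect was 0.72 larger at 4 months (SE 0.36, unadjusted p = 0.0568). With both INSIG1 probe sets, the second of IDI1, the dimmer of CYP51A1 and the dimmer of FDFT1 (MmugDNA.10742.1.S1_at), 5 of 16 probe sets had a larger effect at 4 months at an unadjusted p under 0.05, against 1.60% of all probe sets, and 13 of 16 leaned that way with a median of 0.41, against 45.3% and a median of -0.05 over all. Several of these probe sets belong to the same few genes. With 1 probe set a gene, 8 of 14 synthesis enzymes had a larger effect at 4 months with a median of 0.04, and of the 9 enzymes outside the 8 genes 3 did, with a median of -0.15. Under median scaling 2 of 16, the dimmer CYP51A1 and the second IDI1 probe set, had an unadjusted p under 0.05, against 1.60% of all. The comparison is between 2 animals, 1 per duration.

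Parvocellular layers were compared with magnocellular layers over deprived and nondeprived arrays alike. Both probe sets of FDFT1 had a positive difference. The brighter averaged 9059 ± 1115 in parvocellular (SD, n = 16) and 7543 ± 1049 in magnocellular layers (SD, n = 8), a log2 difference of 0.27 (SE 0.08, adjusted p = 0.0729, limma) that was positive in 4 of 4 LGNs. The dimmer averaged 883 ± 186 in parvocellular and 628 ± 320 in magnocellular layers, a difference of 0.74 (SE 0.23, adjusted p = 0.0779, limma). The magnocellular mean includes the array with the high GAPDH ratio at 90.9, with the next lowest at 384, and without that array the difference of the dimmer probe set was 0.40 (SE 0.14, adjusted p = 0.138) and that of the brighter 0.24 (SE 0.08, adjusted p = 0.113). Neither passed the threshold in this fit, and the brighter one did after quantile normalization (adjusted p = 0.0204) and with a filter on the mean signal (adjusted p = 0.0384).

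DHCR7 averaged 234 ± 52.1 in parvocellular and 176.5 ± 73.5 in magnocellular layers, SREBF2 2501 ± 545 and 2047 ± 689.8, and the brightest probe set of CYP51A1 2754 ± 463 and 2341 ± 1010. Their differences were 0.47 (SE 0.19, adjusted p = 0.189), 0.33 (SE 0.14, adjusted p = 0.226) and 0.32 (SE 0.11, adjusted p = 0.118, limma). Without the same array DHCR7 was at 0.36 (adjusted p = 0.381) and the dimmer INSIG1 probe set at 0.35 (adjusted p = 0.296). With the dimmer INSIG1 probe set at 0.61 over all arrays (SE 0.21, adjusted p = 0.113), 6 of 16 probe sets were higher in parvocellular layers at an unadjusted p under 0.05, against 8.88% of all probe sets, and none was called, against 3.60% of all, or 1355. HMGCS1, SQLE and the brightest probe sets of INSIG1 and IDI1 had differences of 0.01 (SE 0.09), 0.06 (SE 0.13), 0.17 (SE 0.13) and 0.26 (SE 0.21). Each class difference is the mean of a deprived and a nondeprived one, and for these genes and CYP51A1 the signs were opposite. Mean log2 signal of HMGCS1 was 12.14 in parvocellular and 11.875 in magnocellular nondeprived layers, and 12.569 and 12.818 in deprived ones. For CYP51A1 it was 11.294 and 10.617 in nondeprived layers, and 11.521 and 11.558 in deprived ones.

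By group, the order of levels differed from gene to gene. For HMGCS1, SQLE, INSIG1, IDI1 and CYP51A1 the mean was highest in deprived magnocellular layers, followed by deprived parvocellular, nondeprived parvocellular and nondeprived magnocellular layers, and deprived magnocellular and deprived parvocellular layers overlapped for all 5. Of neighbours in that order, nondeprived parvocellular and nondeprived magnocellular layers of CYP51A1 were the only ones without overlap. For FDFT1 and DHCR7 both parvocellular groups stood above both magnocellular groups in the mean. For SREBF2 the order of means was deprived parvocellular, nondeprived parvocellular, deprived magnocellular and nondeprived magnocellular, with overlap between every pair of neighbours.

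With the LGN mean removed, most layers lay within the spread of their neighbours. Layer 5 stood highest among the 6 layers for IDI1 (0.44 ± 0.29 on the log2 scale above its LGN mean), SQLE (0.29 ± 0.26), INSIG1 (0.27 ± 0.27), CYP51A1 (0.26 ± 0.17) and HMGCS1 (0.12 ± 0.39, SD, n = 4 each). Layer 2 stood lowest for DHCR7 (-0.60 ± 0.46), SREBF2 (-0.37 ± 0.54), FDFT1 (-0.24 ± 0.09), CYP51A1 (-0.22 ± 0.80, with layer 1 at -0.21) and INSIG1 (-0.17 ± 0.46). Its 4 arrays include the one with the GAPDH ratio of 50.8. Layers 5 and 6 were not distinguishable from layers 3 and 4 for any of the 16 probe sets after adjustment, nor was any probe set of the array called (0%, with 3377 at an unadjusted p under 0.05).

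Probe sets of one gene did not always move together. In magnocellular layers the dimmer probe sets gave 0.28 (SE 0.37) for INSIG1, 0.11 (SE 0.29) for CYP51A1, -0.28 (SE 0.50) for SQLE and -0.37 (SE 0.44) for FDFT1, each below the estimate of the brighter probe set of that gene. The second IDI1 probe set was level with the brightest (0.65 and 0.63) and the dimmest was at 0.11 (SE 0.59). For SREBF2 the order was reversed in 2 of 3, at 0.53 (SE 0.44) and 1.11 (SE 0.70) against 0.27 for the brightest, and the dimmest was at -0.18 (SE 1.35). The array with the high GAPDH ratio was low with the dimmer probe sets of INSIG1, CYP51A1, SQLE and FDFT1. It gave 203 for the dimmer INSIG1 probe set, 378 for CYP51A1, 40.8 for SQLE and 90.9 for FDFT1, the lowest of all 24 arrays in each case, whereas its signals for the brighter ones were 3023, 2335, 2458 and 7510. For IDI1 and SREBF2 the gap between the brightest and each of the 5 dimmer probe sets was below the median of the 24 arrays on that array, so the 4 genes do not stand for all 6 with more than 1 probe set.

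Without that array 5 of 16 probe sets were higher in deprived magnocellular layers at an unadjusted p under 0.05, against 3.61% of all, and the brightest probe sets of INSIG1, CYP51A1, IDI1 and SQLE differed by 1.01, 1.10, 0.98 and 0.59, the last with an unadjusted p of 0.0565 (limma). Entering the GAPDH ratio in the fit gave a count of 5 as well, against 4.11% of all, and the HMGCS1 difference in parvocellular layers was 0.36 (adjusted p = 0.096, limma). In parvocellular against magnocellular layers the covariate gave 2 of 16 at an unadjusted p under 0.05, the brightest of FDFT1 and of SREBF2, against 7.42% of all.

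**Figure D4:**
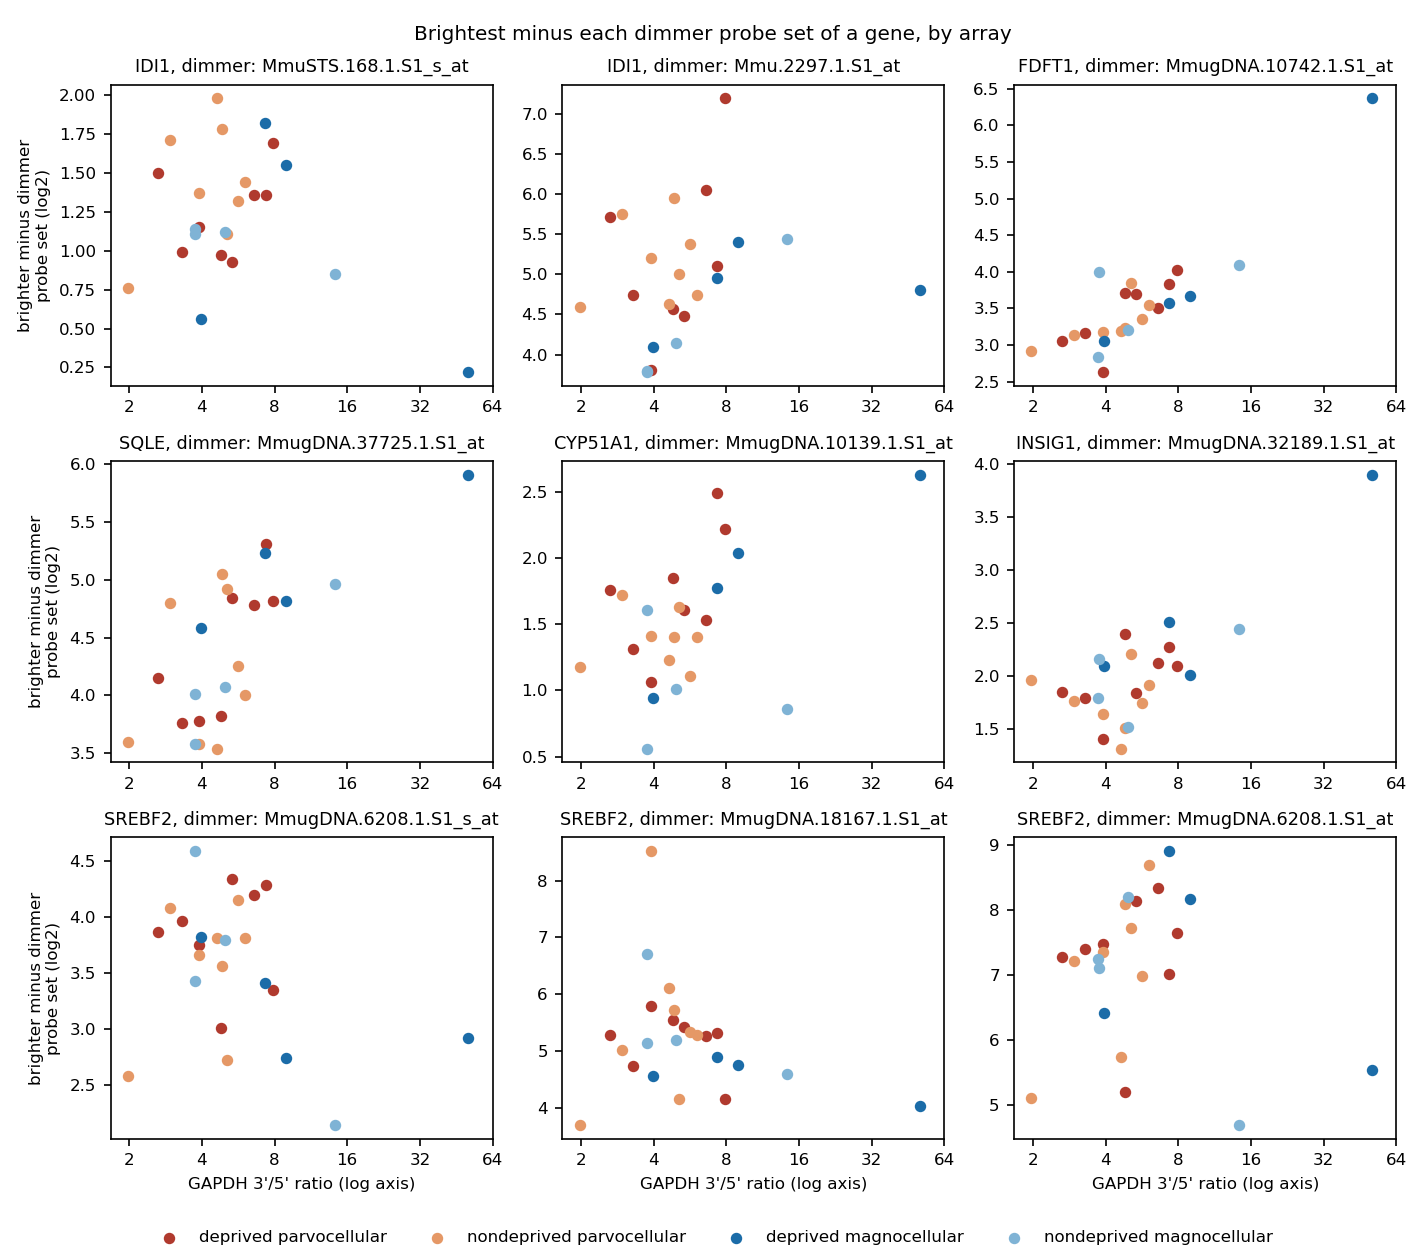
Brightest minus each dimmer probe set of the 6 genes with more than 1 probe set, in log2 signal (vertical axis) against the GAPDH 3′ to 5′ ratio of the array (horizontal axis, logarithmic), 1 point per array, coloured by group. The array with a ratio of 50.8, deprived magnocellular layer 2, has the largest difference for INSIG1 (3.90), CYP51A1 (2.63), SQLE (5.91) and FDFT1 (6.37), the smallest for the second IDI1 probe set (0.22), and lies below the median of the 24 arrays in the other 4 panels.

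The wider list of synthesis enzymes mostly had positive differences in magnocellular layers, without any call. Of 21 enzymes listed, 14 had a probe set by symbol, and 5 of these 14 are among the 8 genes. Here and in the lists below each gene stands by its brightest probe set. The values over all probe sets include dim and unnamed ones, so the comparison is between unlike sets. In deprived magnocellular layers 13 of 14 had a positive difference with a median of 0.53, against 60.1% positive and a median of 0.13 over all probe sets. None was called (0%) and 3 were higher at an unadjusted p under 0.05, CYP51A1, SQLE and the keto-reductase HSD17B7 at 0.65 (SE 0.29), against 3.96% of all. Of the 9 enzymes outside the 8 genes, 8 were positive with a median of 0.53, and HSD17B7 was the 1 with an unadjusted p under 0.05. EBP, the sterol isomerase, and NSDHL, which removes ring methyl groups, had differences of 0.58 (SE 0.27) and 0.61 (SE 0.32), and FDPS, farnesyl diphosphate synthase, -0.77 (SE 0.38). Median scaling brought the count to 11 of 14 with a median of 0.25, against 38.8% positive and a median of -0.15 over all, and for the 9 to 7 with a median of 0.24. Without the array with the high GAPDH ratio it was 12 of 14 with 0.57, against 54.2% and 0.05 over all, and for the 9 it was 7 with 0.31. At an unadjusted p under 0.05, 0 of the 9 were higher under median scaling (1.38% of all) or without that array (3.61% of all). Under median scaling 1 of the 9 was lower.

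In parvocellular layers 11 of 14 enzymes had a positive difference under deprivation with a median of 0.12, against 48.7% positive and a median of -0.01 over all, and 0 were called, against 0.970% of all. The 9 outside the 8 genes had 7 positive differences and a median of 0.11. The smallest p-values were those of CYP51A1 and of LBR, a sterol reductase of the nuclear envelope, at 0.26 (SE 0.12, adjusted p = 0.394, limma). In parvocellular against magnocellular layers 12 of 14 were positive with a median of 0.19, against 46.1% and -0.03 over all, and 0 were called, against 3.60% of all. Of the 9, 7 were positive with a median of 0.16.

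The sterol-sensing list, with 6 of 12 genes measured, had 3 of 6 positive differences in magnocellular layers with a median of 0.06, and 3 of 6 in parvocellular layers with a median of -0.01, against medians of 0.13 and -0.01 over all probe sets. Under deprivation in magnocellular layers INSIG1 stood at 0.93, while INSIG2, its paralog, had -0.20 (SE 0.27), the SREBP carrier SCAP -0.02 (SE 0.28) and the SREBP protease MBTPS2 -0.26 (SE 0.31). In parvocellular layers MBTPS2 was at -0.28 (SE 0.13, adjusted p = 0.443, limma) and SREBF1, which encodes the sister factor SREBP1, at -0.19 (SE 0.14). None of the 6 was called in any comparison.

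Of genes of uptake and intracellular transport, 8 of 13 were measured. NPC1, which moves cholesterol out of lysosomes, was higher in parvocellular than in magnocellular layers by 0.52 (SE 0.13, adjusted p = 0.0205, limma). It was the 1 gene of this list called in any comparison, while 3.60% of all probe sets were called between the classes. Its partner NPC2 was at 0.35 in deprived parvocellular layers (SE 0.10, adjusted p = 0.109), and MYLIP, a ubiquitin ligase, at 0.34 there (SE 0.14, adjusted p = 0.322), at 0.68 in deprived magnocellular layers (SE 0.36) and at 0.39 in parvocellular against magnocellular layers (SE 0.15, adjusted p = 0.172). VLDLR, a lipoprotein receptor, had 0.30 (SE 0.37) in deprived magnocellular layers.

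Of genes of export, storage and turnover, 8 of 13 were measured. CH25H, a hydroxylase of cholesterol, was called higher in parvocellular layers at 1.90 (SE 0.46, adjusted p = 0.0184, limma), but its mean signal of 39.4 lay under 100. It was the 1 of these 8 called between the classes, against 3.60% of all probe sets. APOE, the main lipoprotein of astrocytes, had 0.50 (SE 0.20, adjusted p = 0.299, limma) in deprived parvocellular layers and 0.51 (SE 0.19, adjusted p = 0.151) in parvocellular against magnocellular layers. ABCA1, the exporter, with a mean signal of 63.1, had -0.73 (SE 0.56) in deprived parvocellular layers and -1.26 (SE 0.45, adjusted p = 0.131) in parvocellular against magnocellular layers. CYP46A1, the neuronal hydroxylase that clears cholesterol, had -0.44 (SE 0.36) in deprived magnocellular layers, and the sterol receptor NR1H3 1.96 (SE 0.95) at a mean signal of 34.4.

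Of other SREBP targets, 9 of 12 were measured and none was called. FADS2, a fatty acid desaturase, had 0.99 in deprived magnocellular layers (SE 0.31, unadjusted p = 0.00903, adjusted p = 0.836, limma) and 0.27 in parvocellular layers (SE 0.16). ACACA, the first enzyme of fatty acid synthesis, was at -0.37 (SE 0.27) and -0.19 (SE 0.11), and TMEM97 and the elongase ELOVL6 had 0.21 (SE 0.12) and 0.15 (SE 0.10) in parvocellular against magnocellular layers. Of the 9, 4 were positive in deprived magnocellular layers with a median of -0.01, against the median of 0.13 over all probe sets.

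**Figure D5:**
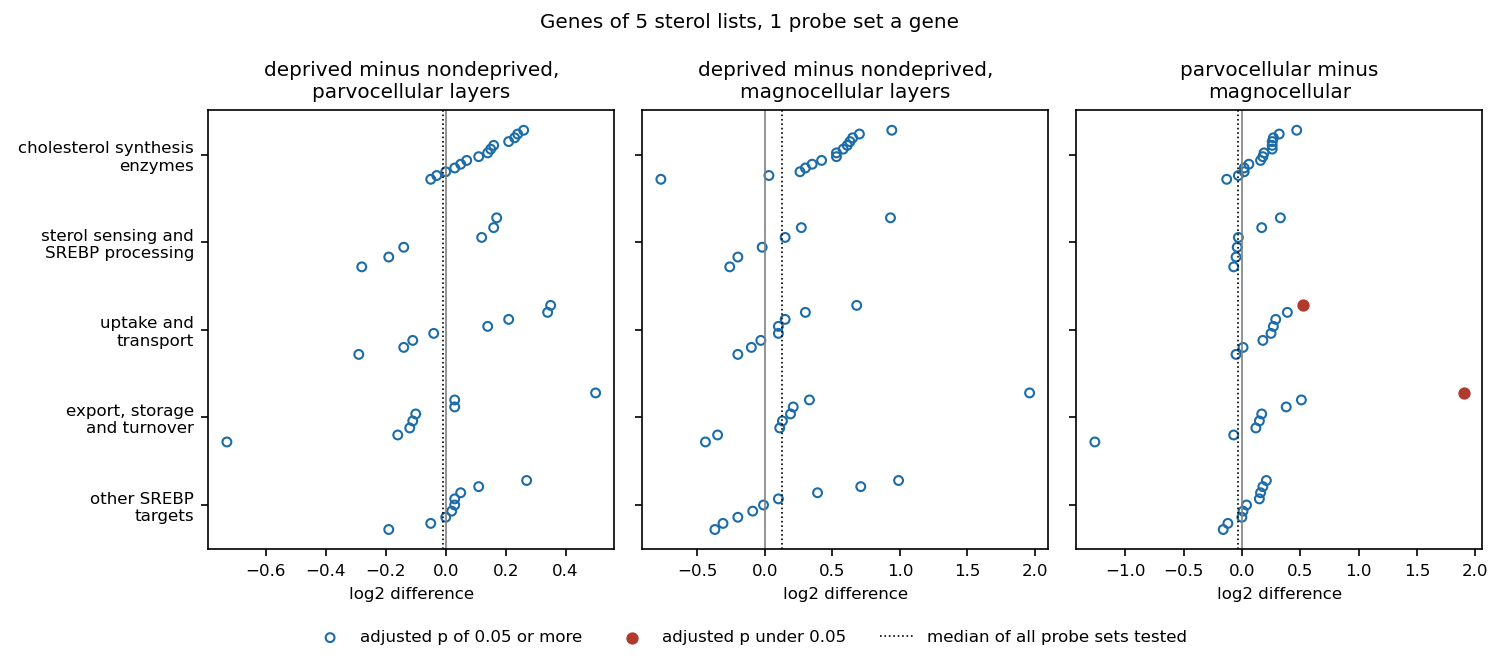
Log2 difference (horizontal axis) of each measured gene of 5 sterol lists (rows, genes sorted within a row) under deprivation in parvocellular layers, under deprivation in magnocellular layers and between parvocellular and magnocellular layers. Filled points passed an adjusted p of 0.05 and the dotted line is the median of all probe sets tested. In the middle panel 13 of 14 synthesis enzymes, 5 of them among the 8 genes, lie right of 0. NPC1 and CH25H are the 2 filled points, both in the right panel (parvocellular against magnocellular layers).

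The captured layers hold several cell types. The neuronal markers of the relay, TCF7L2 and PVALB, were bright on all arrays (medians of 29980 and 22000), SLC17A7 was under 100 on all 24, and SLC17A6 has no probe set by symbol. Myelin and oligodendrocyte markers were measured for 5 of 12 genes, and MBP alone had a median of 34790, so myelin-forming cells contributed RNA. Their summed signal was between 57150 and 83450 in deprived and between 55650 and 72480 in nondeprived parvocellular layers, and between 61420 and 107500 in deprived and between 54890 and 74820 in nondeprived magnocellular layers. All 5 had a positive difference under deprivation in both classes, with medians of 0.16 and 0.25 (over all probe sets -0.01 and 0.13), and none was called. MAL, a myelin protein, was called higher in parvocellular than in magnocellular layers at 0.71 (SE 0.14, adjusted p = 0.00379, limma), and the 5 had a median of 0.42 in that comparison.

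Astrocyte markers (8 of 10 measured, with SOX9 under 100 on 21 arrays) summed to between 48030 and 77270 in deprived and between 50730 and 69810 in nondeprived parvocellular layers, and to between 62500 and 99630 in deprived and between 52170 and 84640 in nondeprived magnocellular layers. Of them 6 of 8 had a positive difference in deprived parvocellular layers with 1 called, GFAP, the filament protein of astrocytes, at 1.07 (SE 0.21, adjusted p = 0.0184, limma), and 5 of 8 in magnocellular layers with a median of 0.34. Microglial markers, 9 of 9 measured, had a positive difference in 9 of 9 in parvocellular and 7 of 9 in magnocellular layers, and CX3CR1 among them was under 100 on 21 arrays. Their sum was between 2927 and 6323 in deprived and between 2613 and 4409 in nondeprived parvocellular layers, and between 2546 and 5674 in deprived and between 2489 and 4691 in nondeprived magnocellular layers.

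GABAergic markers, of which GAD1 and GAD2 were measured out of 4, encode the enzymes that make GABA. Their sum was between 18450 and 24460 in deprived and between 14410 and 16720 in nondeprived magnocellular layers, without overlap, and between 9469 and 16050 in deprived and between 9296 and 14870 in nondeprived parvocellular layers. The sum was mostly GAD1, with a median signal of 14120 against 609 for GAD2. Of all single probe sets, 2.78% lay wholly higher in deprived magnocellular layers. The median difference of GAD1 and GAD2 in magnocellular layers was 0.60, the largest of the marker lists, against 0.13 over all probe sets. Neither was called under deprivation. Neuron markers (6 of 10 measured) summed to between 92370 and 139000 in deprived and between 98470 and 130700 in nondeprived magnocellular layers, and to between 82210 and 101800 in deprived and between 85350 and 113100 in nondeprived parvocellular layers, where 1 of 6 had a positive difference and 2 were lower at an unadjusted p under 0.05. Markers of oligodendrocyte precursors (3 of 5 measured) had 3 of 3 positive differences in deprived parvocellular layers with a median of 0.36, and sums between 2886 and 7336 in deprived and between 3070 and 4562 in nondeprived ones, against 1 of 3 positive in magnocellular layers. Of relay neuron and vessel markers, 1 of 2 and 2 of 4 were positive in each class. In parvocellular against magnocellular layers the neurofilament gene NEFH and GAD1 were called lower, at -0.66 (SE 0.13, adjusted p = 0.00229) and -0.56 (SE 0.11, adjusted p = 0.00213, limma). The part of these cell types in the differences of HMGCS1, CYP51A1, INSIG1 and SQLE was not tested, and fewer cells of a type and less RNA per cell cannot be told apart in these samples.

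Across the 24 arrays, with the LGN mean removed, HMGCS1 varied with SQLE (Pearson r = 0.72), INSIG1 (0.70) and CYP51A1 (0.67), and INSIG1 with CYP51A1 and IDI1 (0.69 each). SREBF2 had its highest value with FDFT1 (0.52), and lower ones with HMGCS1 and SQLE (0.29 each), DHCR7 (0.28), CYP51A1 (0.11), INSIG1 (0.09) and IDI1 (-0.22). These correlations share the arrays' RNA quality and scaling and carry no test. Of 9449 genes, the one closest to HMGCS1 was AMER2 (r = 0.88), followed by SSH2 (0.87) and CREBBP (0.86), to CYP51A1 LRRC40 (0.86), to SQLE FAM3C (0.87), to INSIG1 ZNF518A (0.80), to IDI1 MTMR3 (0.86), to FDFT1 UPP1 (0.76), to DHCR7 SLC66A3 (0.83) and to SREBF2 SP5 (0.89). No member was among the 3 closest genes of another.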

How the data were processed

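The authors pooled laser-captured sections of each layer, amplified the RNA in 2 rounds with T7 polymerase, hybridized it to the Rhesus Macaque Genome Array and computed signals with GCOS. The deposited values are linear signal intensities in arbitrary units, scaled by the authors: once the highest and lowest 2% of values were dropped, every array averaged 500.04. The number of arrays, not a read depth, limits the precision. Genes were named through the platform annotation, which gave a single symbol to 24956 probe sets, more than 1 symbol to 361 and left 27449 unnamed. The name of HMGCS1 comes from the paper. The 99 controls were left out and 37623 probe sets with a signal of 100 or more on at least 1 array were tested.

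Signals under 1 were set to 1 and log2 values were fitted with limma 3.58.1 in R 4.3.3 (eBayes with a trend). The LGN was a fixed block, since layers of one LGN come from the same tissue of one animal. P-values were adjusted by Benjamini-Hochberg over all probe sets and called under 0.05. Each gene was represented in lists by its brightest probe set. The text names all 8 members, genes of the pathway lists that passed the threshold and the 2 with the smallest p per pathway list and main comparison, and gives further pathway genes and marker genes chosen after their values were seen. Members and lists were chosen with earlier results of these data known. No 2 arrays were identical. No sequences or coordinates were used here. One further result is not reported here. Alternatives were other scalings, floors, filters and blocks, covariates, each array left out and each animal alone.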

Additional observations from a re-analysis of the deposited data

Results flagged for a closer look

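Of 68 groups of 4 to 8 arrays, 1 for each probe set and group, 8 held an array far from the rest of its group. A chance rate of about 1 group in 20 would hold for independent values. These groups share arrays and genes and mix 2 animals, so an excess over chance is not shown. The reason was not tested for any of the 8. In HMGCS1, 1 deprived parvocellular layer (layer 3, ipsilateral, 2 months) was at 4135, with the other 7 between 5736 and 7645. In INSIG1, 1 nondeprived parvocellular layer (layer 4, ipsilateral, 4 months) was at 2223, with the others between 3093 and 3982. In CYP51A1, nondeprived magnocellular layer 2 (contralateral, 2 months) was at 1324, with the others between 1642 and 1678, and in SQLE nondeprived magnocellular layer 1 (ipsilateral, 2 months) was at 1211, with the others between 1653 and 1717.

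The dimmer FDFT1 probe set was at 684.5 in nondeprived parvocellular layer 3 (contralateral, 2 months), with the others between 861 and 1046. DHCR7 was at 94.66 in nondeprived magnocellular layer 2 (contralateral, 4 months), with the others between 161 and 175. A dim SREBF2 probe set was at 6.492 in nondeprived parvocellular layer 6 (ipsilateral, 4 months), with the others between 42.6 and 134, and another was at 108.4 in deprived parvocellular layer 6 (contralateral, 2 months), with the others between 6.69 and 15.9. Both SREBF2 probe sets lie mostly under 100.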

How the results depend on the processing

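Each choice was changed alone. INSIG1, CYP51A1, SQLE and IDI1 kept a positive magnocellular difference under all 22 alternatives, and none reached an adjusted p under 0.05. HMGCS1 did the same, but the study picked its probe set on these arrays, so its sign is a description only. The alternatives used the brightest probe set of each gene, except where the mean over a gene's probe sets was taken. The parvocellular call of HMGCS1 (limma, adjusted p) was lost with median scaling (0.4), without a filter (0.0508), without a trend (0.157), with the animal as the block (0.056) and with the GAPDH covariate (0.096), and was kept after quantile normalization (0.0221) and with a mean filter (0.0246). In parvocellular against magnocellular layers 0 of 16 probe sets were called, but 1 after quantile normalization, 1 with the mean filter and 0 to 2 with arrays left out. FDFT1 averaged over its probe sets passed there (0.0462). The cause was not tested.

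Some differences changed sign, among them some that were not near 0: DHCR7, SREBF2 and FDFT1 in magnocellular layers (0.35, 0.27 and 0.26) and IDI1 between the classes (0.26). Median scaling gave 0.03 for IDI1 in parvocellular layers and -0.02 for FDFT1 and for SREBF2 in magnocellular layers under deprivation, and the GAPDH covariate gave -0.01 for SQLE in parvocellular layers. In the animal deprived for 2 months alone, INSIG1 and FDFT1 had -0.13 and -0.06 in parvocellular layers, DHCR7 -0.30 in magnocellular layers and HMGCS1 -0.06 in parvocellular against magnocellular layers. In the animal deprived for 4 months alone, IDI1 had 0.36 in parvocellular and SREBF2 -0.20 in magnocellular layers, and SQLE and IDI1 -0.02 and -0.17 in parvocellular against magnocellular layers. The mean over probe sets gave 0.04 for IDI1 and -0.03 for FDFT1 in parvocellular layers, -0.05 for FDFT1 in magnocellular layers and -0.05 for IDI1 between the classes. With arrays left out in turn, DHCR7 ranged between -0.15 and 0.67 in magnocellular layers, IDI1 between -0.14 and 0.12 in parvocellular layers, and HMGCS1 between -0.03 and 0.06 and SQLE between 0.00 and 0.11 in parvocellular against magnocellular layers.

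Over all probe sets, deprivation in parvocellular layers called 365, but 25 with median scaling, 15 without a trend, 598 with the mean filter, 7 and 1 with the animal at 2 and at 4 months alone, and 136 to 457 with arrays left out. In magnocellular layers it called 0, but 1 with the animal as the block, 2 with the GAPDH covariate, 1 and 46 with the animal at 2 and at 4 months alone, and 0 to 9 with arrays left out. Parvocellular against magnocellular layers called 1355, but 789 with median scaling, 222 and 368 with each animal alone, and 960 to 1872 with arrays left out. The difference between layer classes called 0, but 1 with the animal at 2 months alone and 0 to 1 with arrays left out. The tests by duration and of outer against inner layers called 0, and 0 to 1 with arrays left out. Unadjusted, 1 of 16 probe sets was higher in deprived parvocellular layers (6.21% of all) and 0 with median scaling (5.25% of all) or the GAPDH covariate (6.09% of all).

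Without the LGN as a block (no pairing of layers within a nucleus), 28 probe sets were called for deprivation in parvocellular layers, 0 in magnocellular layers and 624 between the classes, and HMGCS1 in parvocellular layers had 0.43 (adjusted p = 0.191, limma). The block changed no other call of the 8 genes. The number of arrays and probe sets under a signal of 100 limit what could be seen for DHCR7 and the dim probe sets of SQLE, IDI1 and SREBF2.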
